A study of Homo sapiens with 3 samples.

Results

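A pair of short hairpin RNAs against the same gene was compared directly: the array of KMS11 cells that received shMMSET#4 against the array of KMS11 cells that received shMMSET#2. KMS11 is an established human multiple myeloma line that carries the t(4;14) translocation. All cells were infected with lentivirus, and RNA was taken at 48 h. The series holds 3 arrays, 1 for each of these hairpins and 1 for shLuc, a control hairpin, so the comparison uses 2 of the 3 samples, and the shLuc array serves as a reference for the levels alone. Of the 54675 probe sets on the array, the 41091 that carry a single gene symbol entered, and 24375 of them, for 12837 of 19775 genes, were bright enough on at least 1 hairpin array to be compared. Each side is 1 array. Differences are therefore described by size, no p-value can be given, and "higher" and "lower" describe these arrays. The line is a single cell line, so nothing here speaks for other t(4;14) cells.

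MMSET, whose current symbol is NSD2, encodes a methyltransferase that places methyl groups on lysine 36 of histone H3, a mark found over the bodies of transcribed genes. In t(4;14) myeloma the translocation brings the gene under immunoglobulin enhancers, which drives it to high levels. A short hairpin RNA is processed into a small RNA that guides the silencing machinery to a matching transcript. Hairpins against one gene can differ in how far they lower it. Myeloma cells are malignant plasma cells, and they rely on a set of factors that includes IRF4, PRDM1, XBP1 and MYC and on a large secretory apparatus.

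The targeted gene was higher with shMMSET#4 than with shMMSET#2 on all 6 of its probe sets. Signals in this text are MAS5 intensities on a linear scale and are given in the order shLuc, shMMSET#2, shMMSET#4. Probe set 209054_s_at, the brightest, read 10300, 7032 and 7476, so the hairpin arrays differed there by 1.06-fold. The other bright one, 209053_s_at, read 5617, 3408 and 5139, and 209052_s_at read 1027, 709 and 1063. On both of these the shMMSET#4 signal lay near shLuc while the shMMSET#2 signal lay below it. The widest gaps were on dimmer probe sets: 222778_s_at read 2165, 335 and 1260, a 3.76-fold difference between the hairpins. Probe set 222777_s_at read 1492, 389 and 1054, and 223472_at read 1239, 227 and 403. The log2 ratio of shMMSET#4 to shMMSET#2 ran from 0.09 to 1.91, the median being 0.71 and the SD over these probe sets 0.66. How far apart the hairpins stand in NSD2 thus depends on the probe set read, and the brightest gives the smallest difference. Which transcript forms each probe set reads was not determined here.

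**Figure D1:**
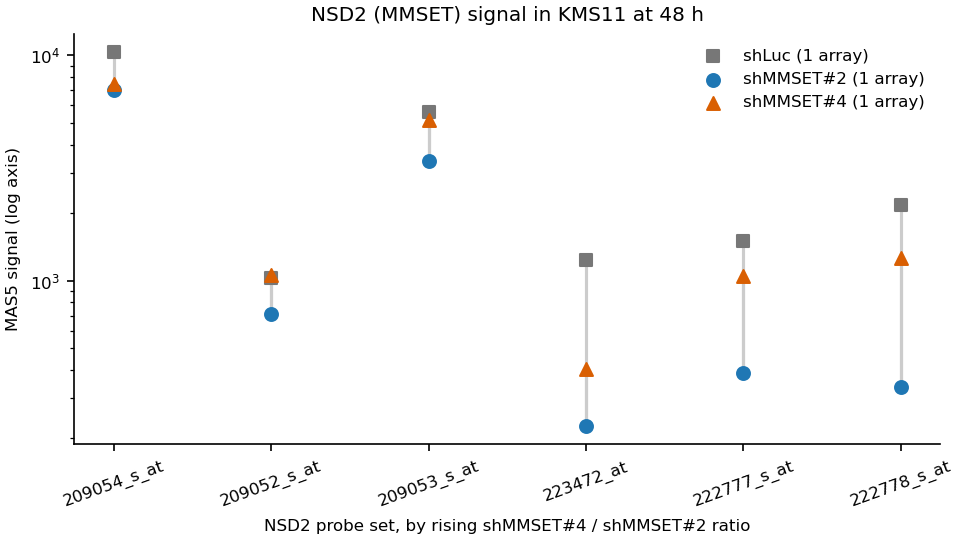
MAS5 signal of the 6 NSD2 probe sets (log axis) on the shLuc, shMMSET#2 and shMMSET#4 arrays, 1 array each, ordered from the smallest to the largest ratio between the hairpins. The shMMSET#4 signal lies above the shMMSET#2 signal on every probe set, by a log2 ratio of 0.09 at the left and 1.91 at the right.

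Among the relatives of NSD2 and the other genes of H3K36 methylation, the hairpin arrays were mostly alike. In this list of 26 tested genes, 3 passed 1.5-fold upward with shMMSET#4 and 0 passed it downward, against 18.2% and 14.3% of all tested genes. SETD2, which trimethylates the same lysine, had signals of 1599, 1357 and 1568. NSD3 read 1864, 1977 and 1466 on its brightest probe set, and its 6 probe sets ran from -0.69 to 0.55. NSD1 was dim (98.1, 85.0 and 127). These 3 genes lie outside the naming rule and were chosen after their values were seen. The 3 members past 1.5-fold are other genes.

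The arrays differed on many genes beyond the target. On the brightest probe set of each gene, 933 genes were at least 2-fold higher with shMMSET#4 (7.27% of those tested) and 562 were at least 2-fold lower (4.38%). At least 4-fold differences numbered 72 higher and 24 lower, and at least 8-fold differences 8 and 0. The median gene lay within 1.29-fold on the hairpin arrays, and 95% of genes lay within 2.48-fold. This spread holds both noise and any real difference between the cultures, and with 1 array a side they cannot be told apart. It depends on brightness. In the brightest decile of genes 95% lay within 1.73-fold, whereas in the second dimmest decile the bound was 3.49-fold. Called genes were dim as a group, with a median signal of 172 for the higher and 92.5 for the lower, against 576 for all tested genes. In 237 of the higher genes the shMMSET#2 signal was at or under the floor of 37.7, and in 192 of the lower genes the shMMSET#4 signal was, so those ratios are lower bounds. A dim gene can enter through the hairpin array on which it is brighter. With a filter on the mean signal instead, 736 genes were at least 2-fold higher and 392 lower. Fewer cells of a kind and less RNA per cell cannot be told apart in such bulk RNA.

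**Figure D2:**
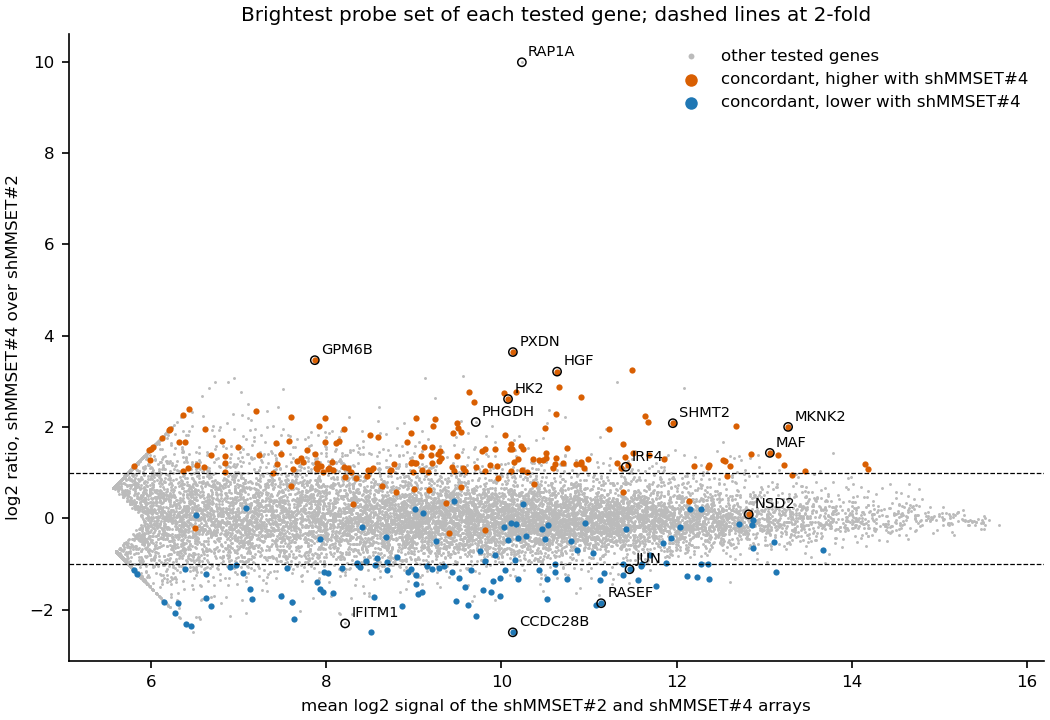
Log2 ratio of shMMSET#4 to shMMSET#2 against the mean log2 signal of these arrays, 1 point per tested gene at its brightest probe set. Coloured genes have at least 2 probe sets past 2-fold the same way and none past 1.5-fold the other way, 188 higher and 128 lower, and RAP1A stands alone near a log2 ratio of 10.

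A single gene name stands far outside this range. RAP1A encodes a small GTPase of the RAS family, and it was singled out after its values were seen. Its probe set 1555340_x_at read 5.21, 9.47 and 38422, and 1555339_at read 85.3, 30.3 and 34060. Against the floor, shMMSET#4 exceeded shMMSET#2 by at least 1018-fold on the first and at least 902-fold on the second. Both lie near the highest signal on that array, 51377. The other RAP1A probe sets did not follow: 202362_at read 1286, 2116 and 2425, a log2 ratio of 0.20, and 228548_at read 109, 207 and 131, a log2 ratio of -0.66. Only the first pair of probe sets carries the difference, on 1 array of the 3, and the RAP1A message as read by the other pair does not. What the first pair detects on the shMMSET#4 array was not tested.

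Agreement between probe sets of one gene was used to separate genes whose difference rests on a single probe set. Probe sets of a gene share the RNA and the array, so their agreement bears on probe noise and says nothing of the spread between cultures. Of 367 genes at least 2-fold higher on the brightest of several tested probe sets, 148 (40.3%) were at least 2-fold higher on the second brightest too. Among all 6331 genes with at least 2 tested probe sets, 5.83% had a second probe set that far up. Of 187 genes at least 2-fold lower, 69 (36.9%) were at least 2-fold lower on the second, against 5.43% of all. A second probe set at least 1.5-fold the opposite way was seen for 25 of the higher genes (6.81%) and 22 of the lower (11.8%). Among all 6331 genes, 16.6% had a second probe set that far down and 15.9% that far up. Agreement was more frequent for large differences: 29 of 40 genes at least 4-fold higher and 6 of 9 at least 4-fold lower were past 2-fold on both.

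A gene is called concordant here when at least 2 of its tested probe sets passed 2-fold the same way and none passed 1.5-fold the other way. There were 188 concordant higher genes (2.97% of 6331) and 128 concordant lower genes (2.02%). On 172 and 107 of these, every tested probe set lay on the same side of 0. NSD2 itself is among the concordant higher genes, through 2 of its dimmer probe sets. The opposite case exists as well, since 41 genes had probe sets past 2-fold in each direction. MICALL2 ran from -2.77 to 1.32 over 3 probe sets, WNK2, a kinase, from -1.26 to 2.97 over 5, PLXND1, a semaphorin receptor, from -1.59 to 2.22 over 3. CCDC57 ran from -1.29 to 1.78 over 4. For such genes no direction can be stated.

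**Figure D3:**
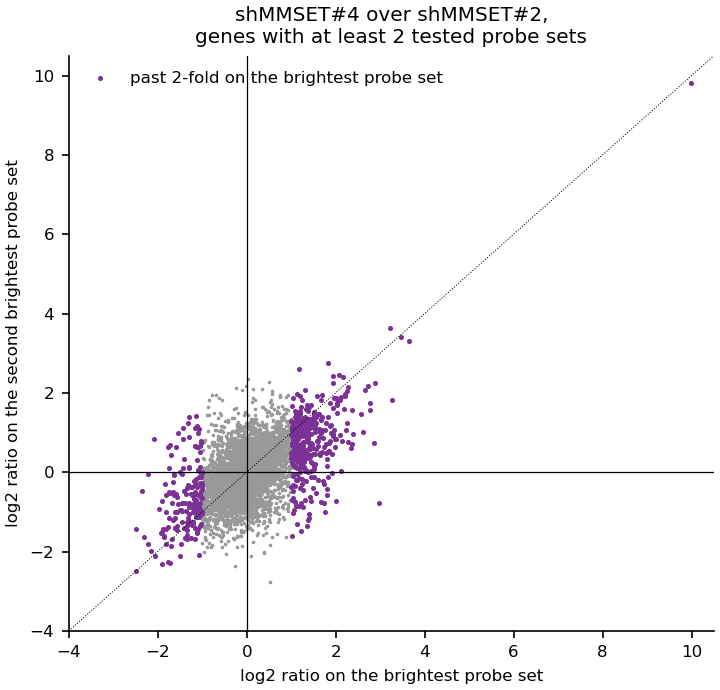
Log2 ratio of shMMSET#4 to shMMSET#2 on the brightest (x axis) and second brightest (y axis) tested probe set of the 6331 genes with at least 2. Of genes past 2-fold on the brightest, 148 of 367 higher and 69 of 187 lower ones were past 2-fold on the second as well, and the point at the upper right is RAP1A.

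The concordant genes with the largest ratios were, for most, genes whose shMMSET#4 signal was close to shLuc and whose shMMSET#2 signal was low. PXDN, which encodes peroxidasin, an enzyme that cross-links collagen IV, had signals of 2914, 317 and 3965, a 12.5-fold difference between the hairpins, and a second probe set read 1450, 191 and 1893. HGF, the secreted ligand of the MET receptor, read 8905, 522 and 4848 (9.28-fold), and its 5 probe sets ran from 1.86 to 3.62 on the log2 scale. SULF2, a sulfatase that trims heparan sulfate outside the cell, read 5291, 597 and 4382 (7.34-fold). In all 3 genes the shMMSET#2 array is the low one, and the shLuc and shMMSET#4 arrays lie within 2-fold of each other. The same order was seen for TMPRSS15, the intestinal protease enteropeptidase (2370, 302 and 2073), CAV2, a caveolin (2832, 441 and 3002), and ABLIM1, an actin-binding protein (2311, 406 and 2704). CCNE2, cyclin E2 of the G1/S transition, read 6408, 1463 and 6954, and KIAA1549L read 5621, 931 and 8893. MARK4, a microtubule-affinity kinase, read 1605, 557 and 1984. MUC1, a membrane mucin, read 2678, 285 and 1280, though 1 of its 3 probe sets gave a log2 ratio of only 0.16.

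SHMT2 departed from that order. It encodes the mitochondrial serine hydroxymethyltransferase that feeds 1-carbon units from serine into folate, and its signals were 1416, 1931 and 8189, so that shMMSET#4 was the array that stood apart. A second probe set read 625, 669 and 3639 and the dimmest 125, 176 and 1454, and the log2 ratios between the hairpins were 2.08, 2.44 and 3.04. GPM6B, a membrane proteolipid, read 446, 70.4 and 778, with log2 ratios from 1.71 to 3.47 over 4 probe sets. PRKCB, a protein kinase C, read 267, 119 and 543, PLPP5, a lipid phosphatase, read 2991, 769 and 4841, and STC2, a secreted glycoprotein, read 230, 49.8 and 192.

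Among genes with a single tested probe set, the largest ratios belonged to EIF4EBP1, the repressor of cap-dependent translation that mTOR phosphorylates (1087, 257 and 2228), SYNDIG1 (283, 42.5 and 358), INHBE, an inhibin subunit (1315, 193 and 1626), CRYBB1, a crystallin (1384, 907 and 7208), and PNMA2 (141, 41.7 and 330). For these no second probe set bears on the value. The shMMSET#2 signals of SYNDIG1 and PNMA2 were close to the floor, where the spread is wide. With the floor at the 60th percentile, the log2 ratio of SYNDIG1 went from 3.08 to 1.71. That of PNMA2 went from 2.98 to 1.59. CRYBB1 was high on the shMMSET#4 array, 5.21-fold above shLuc, while INHBE was low on the shMMSET#2 array.

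The concordant genes lower with shMMSET#4 were dimmer. CCDC28B read 806, 2663 and 472, a 5.64-fold difference with a log2 ratio of -2.50 on both of its probe sets. MIGA1, a protein of mitochondrial fusion, read 519, 1769 and 399, HES1, a repressor downstream of Notch, read 493, 864 and 155, and CPEB3, an RNA-binding regulator of translation, read 420, 679 and 205. In each of these the shMMSET#2 signal was the highest of the 3. TLR4, the receptor for lipopolysaccharide, read 84.9, 429 and 92.4, and its 3 tested probe sets agreed (from -2.21 to -1.77). ANKRD6 read 80.9, 321 and 99.6, KATNAL1, a microtubule-severing ATPase, read 400, 904 and 240, and NFIB, a nuclear factor I protein, read 175, 264 and 77 with all 5 of its tested probe sets between -2.25 and -1.44. RASEF, a Rab-like GTPase, was the brightest of the group (5677, 4295 and 1184), and here the shMMSET#4 signal was the one that stood apart. MED19, a Mediator subunit, read 982, 1338 and 382, and LRRC39 read 188, 151 and 41.6. FCRL4 (3.90, 158 and 36) and MMP28, a matrix metalloproteinase (99.1, 188 and 33.2), were under the floor with shMMSET#4 and were at least 4.18-fold and at least 4.97-fold lower.

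RNA45SN5, the ribosomal RNA precursor, was among the lower genes, at 1555, 4195 and 1119 on one probe set and 1322, 3141 and 636 on the other. The array's control probe sets for 18S ribosomal RNA gave log2 ratios of -0.39, -0.14 and -0.30. The part that carried-over ribosomal RNA has in this value was not tested. Single-probe-set genes with the lowest ratios were IFITM1 and ISG15, described below with the interferon genes, and MTSS1 (157, 198 and 44.1), ZNF76 (238, 193 and 43.4) and ZNF579 (231, 251 and 56.8). In the last 3 the shMMSET#4 signal was close to the floor, where the spread is widest.

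Where the shLuc array lies relative to the hairpins was counted over the called genes. Since both hairpin arrays fix the call, shLuc falls between them more often than for other genes by construction. It was between them for 602 of the 933 higher genes (64.5%) and 361 of the 562 lower genes (64.2%), against 30.4% of all tested genes. For 246 of the higher genes (26.4%) shLuc was above both hairpins and for 85 (9.11%) below both, against 35.3% and 34.4% of all tested genes. Among the 188 concordant higher genes, 97 (51.6%) had shMMSET#4 but not shMMSET#2 within 1.5-fold of shLuc and 42 (22.3%) had the reverse. Among the 128 concordant lower genes the counts were 36 (28.1%) and 41 (32.0%). Over all tested genes these shares were 18.1% and 17.2%. Both hairpins lay within 1.5-fold of shLuc for 9 of the 188 and 22 of the 128, against 46.1% of all tested genes. Since the call asks for a difference between the hairpins, the shares with only 1 of them near shLuc rise by construction. Genes higher with shMMSET#4 thus more often had that array close to control, while for lower genes neither hairpin was favoured by count.

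Plasma cell transcription factors were not shifted as a group, but several of the best known were higher with shMMSET#4. The median log2 ratio of the 40 tested factors was 0.09, against 0.01 over all tested genes. At least 1.5-fold, 12 were higher (30%) and 7 were lower (17.5%), against 18.2% and 14.3% of all tested genes. IRF4, on which myeloma cells depend, had signals of 5291, 1853 and 4053, a 2.19-fold difference, and its second tested probe set gave a log2 ratio of 0.70. MYC, read by 1 probe set, had 9616, 2979 and 7547 (2.53-fold). On the brightest probe set of PRDM1, which encodes the repressor BLIMP-1, the signals were 5403, 2362 and 6158 (2.61-fold), but its other 2 gave log2 ratios of 0.39 and 0.27 only. In all 3 genes the shMMSET#2 array was the low one.

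MAF read 15208, 5213 and 14083 (2.70-fold), and its 6 probe sets all lay above 0, from 0.41 to 1.43. ZNF215 (235, 62.2 and 185), BACH2, a repressor of plasma cell differentiation (625, 198 and 407), and EGR1, an immediate early factor (131, 81.4 and 186), were also at least 2-fold higher. Next came TCF3, which encodes the E2A proteins (7288, 3342 and 6481), although its 11 tested probe sets ran from -0.65 to 1.16. FOXO1 (92.1, 124 and 245) was 1.98-fold higher, POU2AF1, the octamer coactivator (18545, 7821 and 14558), 1.86-fold, XBP1 (16087, 8577 and 14115) 1.65-fold, and POU2F2 (199, 152 and 247) 1.63-fold. All 6 tested POU2F2 probe sets lay above 0.

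The factors at least 2-fold lower with shMMSET#4 were ID3, an inhibitor of E proteins (850, 1487 and 455), ZBTB20 (190, 240 and 81.7) and BHLHE41 (200, 150 and 64.9). ZBTB20 was lower on all 9 of its tested probe sets, from -1.56 to -0.80, the largest number of agreeing probe sets among these factors. ID2 (7963, 11714 and 6010), KLF2 (2017, 1549 and 791), SPIB (289, 718 and 387) and EBF1 (119, 79.9 and 48.9) were at least 1.5-fold lower, although a second KLF2 probe set gave a log2 ratio of 0.11. BHLHE41 and EBF1 were dim. With the floor at the 60th percentile, the log2 ratio of BHLHE41 went from -1.21 to -0.46 and that of EBF1 from -0.71 to 0. IKZF1, which encodes Ikaros (745, 692 and 822), IKZF3, which encodes Aiolos (2853, 2013 and 2584), BATF (393, 468 and 431) and RUNX3 (2861, 4801 and 4822) were within 1.5-fold on their brightest probe sets, and so were TCF4 (25790, 23589 and 20689) and STAT3 (5274, 4006 and 3271). On their brightest probe sets, some factors were lower than shLuc with both hairpins and about even between them: MEF2C (1500, 452 and 389), CREB3L2, a factor of the secretory pathway (5748, 1909 and 2046), BCL6, the germinal centre repressor (425, 143 and 169), and FLI1 (2181, 1136 and 1273). The other BCL6 probe set gave a log2 ratio of 0.75, and the median over probe sets was 0.55 for FLI1. MEF2C ran from -0.70 to -0.13 under other processing. In all, 21 of the 40 factors were within 1.5-fold between the hairpins.

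Of plasma cell surface and identity genes, 14 of 42 tested (33.3%) were past 1.5-fold upward with shMMSET#4 and 4 (9.52%) downward, against 18.2% and 14.3% of all tested genes. Their median log2 ratio was 0.32. Beside HGF, the highest were MZB1, a chaperone of immunoglobulin assembly (1930, 1578 and 6817), SLAMF7, the surface receptor targeted by elotuzumab (7133, 1218 and 4737), and IL6R, the interleukin 6 receptor (3078, 262 and 953). SLAMF7 ran from 1.83 to 1.96 over 3 probe sets, MZB1 from 1.89 to 2.11 over 2, and IL6R from 1.74 to 1.86 over 2. MZB1 was high with shMMSET#4 and near shLuc with shMMSET#2, whereas SLAMF7 and IL6R were lower with both hairpins than with shLuc and lowest with shMMSET#2.

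Further members, chosen after their values were seen, show how the list splits. TNFRSF17, which encodes BCMA, read 18258, 11771 and 21560. FGFR3, the other gene that t(4;14) activates, read 34952, 24596 and 33064 on its brightest probe set, a 1.34-fold difference, and a log2 ratio of 1.21 on a far dimmer one (214, 158 and 364). JCHAIN (55012, 40928 and 39387), CXCR4 (11574, 10772 and 10092), CCND2 (19310, 25831 and 23826) and SDC1, which encodes CD138 (4166, 3338 and 3646), differed by at most 1.09-fold between the hairpins on their brightest probe sets. A second SDC1 probe set gave a log2 ratio of 1.02. CD38 was close to the dim end on every array (94.4, 129 and 151). CD27 read 59.4, 92.8 and 30.7, the last of these under the floor.

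The 9 defining plasma cell markers were all above the floor on all arrays, with a summed signal of 125933, 76462 and 113295 and 6 of 9 at least 1.5-fold higher with shMMSET#4. Of all tested genes, 18.2% were that much higher. Markers of other cell types were near the floor for most: 1 of 5 T cell, 1 of 6 myeloid, 1 of 4 erythroid, 2 of 5 fibroblast, 4 of 5 epithelial and 1 of 4 endothelial markers were tested. Their summed signals were 260, 146 and 134 for T cells and 270, 179 and 94.7 for myeloid cells. The epithelial list was carried by EPCAM (8099, 4391 and 10651), and PECAM1 of the endothelial list read 601, 295 and 618. CDH1, also epithelial, read 595 with shLuc and 340 with shMMSET#4. Its shMMSET#2 signal was 11.9-fold below shLuc and close to the floor of 37.7. The 6.79-fold difference between the hairpins rests on 1 probe set. Its log2 ratio of 2.76 became 1.64 with the floor at the 60th percentile and 1.96 with log2(signal + 50). What part cells of another type have in these values was not tested.

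Genes of amino acid supply and the tRNA synthetases formed the list with the highest median, 0.54. Many of them are targets of ATF4, the transcription factor of the integrated stress response. In this list of 42 tested genes, 19 had a signal at least 1.5-fold higher with shMMSET#4, 9 of them at least 2-fold, and 1 was lower. The shares past 1.5-fold were 45.2% higher and 2.38% lower, against 18.2% and 14.3% of all tested genes. PHGDH, the first enzyme of serine synthesis, had signals of 698, 402 and 1737 (4.32-fold), and PSAT1, the second, had 2875, 2037 and 5353 (2.63-fold), with both of its probe sets past 2-fold. SHMT2 is described above. In PHGDH, PSAT1 and SHMT2 the shMMSET#4 array was the highest and lay above shLuc.

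Transporter genes were among the higher members. SLC1A5, which carries glutamine, read 795, 298 and 953 (3.20-fold), and SLC3A2, the heavy chain of several exchangers, read 1581, 1051 and 2746 (2.61-fold). ASNS, asparagine synthetase, read 6287, 3872 and 10025 (2.59-fold). Some members were picked after their values were seen: SLC7A5 read 8532, 4611 and 11610, CBS, of the transsulfuration pathway, read 579, 339 and 872 with log2 ratios from 1.36 to 1.71 over 3 probe sets, and XPOT, the tRNA exporter, read 11414, 6384 and 14321.

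The list was not uniform. ATF4 itself read 28464, 13943 and 22448 (1.61-fold), and ATF5 1.67-fold higher at 3137, 1748 and 2919, so for both the shMMSET#4 array was below shLuc. DDIT3, which encodes CHOP, was the 1 lower member (923, 1078 and 663). ATF3 (2141, 1169 and 867), MTHFD2 (18866, 13602 and 15177), SLC38A2 (26728, 16898 and 17070), IARS1 (21735, 16720 and 19972) and AARS1 (5075, 5270 and 7210) were within 1.5-fold. Apart from DDIT3, the genes of this paragraph were chosen after their values were seen.

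The C/EBP-ATF response element, the kind of site through which ATF4 acts on ASNS, was sought as TGATGNAA on either strand in the bases before the start site of the RefSeq promoters (GRCh38.p14). This motif was chosen after the values were seen. It was found in 5 of 35 promoters of tested members (14.3%), in 2 of the 16 that were at least 1.5-fold higher, against 3.14% of all 35116 promoters in the table and 1.56% of those of tested genes. The matches with their flanks are shown for the 2 higher genes, with the match in capitals. The ASNS stretch is chr7:97872439-97872506, minus strand, and the CHAC1 stretch is chr15:40953232-40953299, plus strand, where the match reads on the opposite strand. CHAC1, a glutathione-degrading enzyme, had signals of 466, 241 and 433.
ASNS: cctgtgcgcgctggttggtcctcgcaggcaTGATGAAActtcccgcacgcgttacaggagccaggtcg
CHAC1: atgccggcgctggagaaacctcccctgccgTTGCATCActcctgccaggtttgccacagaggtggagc
A match is a description of letters, and most of the higher members had none in this window.

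Interferon response genes, which cells switch on when they sense interferon or foreign nucleic acid, had the lowest median of all 28 lists, -0.45. Of 48 tested members, 19 were at least 1.5-fold lower with shMMSET#4, 11 of them at least 2-fold, and 3 were higher. The shares past 1.5-fold were 39.6% lower and 6.25% higher, against 14.3% and 18.2% of all tested genes. IFITM1, a membrane protein that blocks virus entry, had signals of 101, 660 and 134 (4.93-fold), ISG15, a ubiquitin-like modifier, had 79.9, 589 and 139 (4.24-fold), and DDX60L, a helicase-like protein, had 79.6, 279 and 66.2 (4.22-fold). RSAD2, which encodes viperin, read 39.8, 200 and 53 and IFIT2 read 106, 571 and 171. For these 5 genes the shMMSET#2 array was high and the shMMSET#4 array was at most 1.74-fold from shLuc. RSAD2 was lower on both tested probe sets, and the second IFIT2 probe set gave a log2 ratio of -0.50.

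Other members, chosen after their values were seen, were higher than shLuc with both hairpins and highest with shMMSET#2. They include DDX60 (99.5, 841 and 344), IFIT1 (131, 787 and 332), IFI44 (68.7, 470 and 231), OASL (137, 474 and 238) and HERC5, the ligase for ISG15 (683, 3786 and 3110). HERC5 differed by only 1.22-fold between the hairpins, IFI35 (97.4, 412 and 467) by 1.13-fold and MX1 (220, 492 and 428) by 1.15-fold. Between these genes the ratio of the hairpins thus ran from about even to more than 4-fold. GBP1 (902, 456 and 233) and RIGI, the sensor of viral RNA (316, 216 and 116), had another order, with shLuc the highest array. IRF9, a subunit of the factor that interferon activates, read 924, 1126 and 532.

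The 3 members higher with shMMSET#4 were ISG20, an exonuclease (2207, 2758 and 4186, with both probe sets higher), EPSTI1 (672, 507 and 898, likewise) and OAS3, an oligoadenylate synthetase (32.3, 20.4 and 97.2, at least 2.57-fold). OAS3 rests on the floor on the other arrays.

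The interferon-stimulated response element was sought as GAAA and GAAA with any 2 bases between them, on either strand, in the same windows, since interferon genes are commonly switched on through it. It was found in 22 of 40 promoters of tested members (55.0%), against 3.02% of all promoters in the table and 2.27% of those of tested genes. Members lower with shMMSET#4 carried it in 9 of 15 promoters, and those higher in 3 of 3. The share of each group rests on few genes and the groups were not tested against each other. Stretches before the start site are shown for 4 lower genes and, for contrast, for 2 higher ones, with the matches in capitals.
ISG15: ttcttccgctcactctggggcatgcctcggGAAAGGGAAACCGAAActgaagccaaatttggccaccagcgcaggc
IFITM1: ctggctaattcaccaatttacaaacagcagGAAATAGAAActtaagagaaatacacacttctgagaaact
DDX60L: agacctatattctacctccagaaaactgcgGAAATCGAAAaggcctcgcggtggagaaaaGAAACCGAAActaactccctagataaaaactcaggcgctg
IFIT1: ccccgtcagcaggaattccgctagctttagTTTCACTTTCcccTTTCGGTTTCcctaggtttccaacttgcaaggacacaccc
ISG20: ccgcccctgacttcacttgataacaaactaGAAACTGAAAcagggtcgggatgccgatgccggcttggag
EPSTI1: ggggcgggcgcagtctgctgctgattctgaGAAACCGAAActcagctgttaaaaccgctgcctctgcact
These lie at chr1:1013354-1013429, plus strand (ISG15), chr11:313970-314039, plus (IFITM1), chr4:168480503-168480602, minus (DDX60L), chr10:89392477-89392559, plus (IFIT1), chr15:88638917-88638986, plus (ISG20), and chr13:42992252-42992321, minus (EPSTI1). In ISG15 a pair of matches overlap. Genes that differ in opposite directions between the hairpins thus carry like letters.

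**Figure D4:**
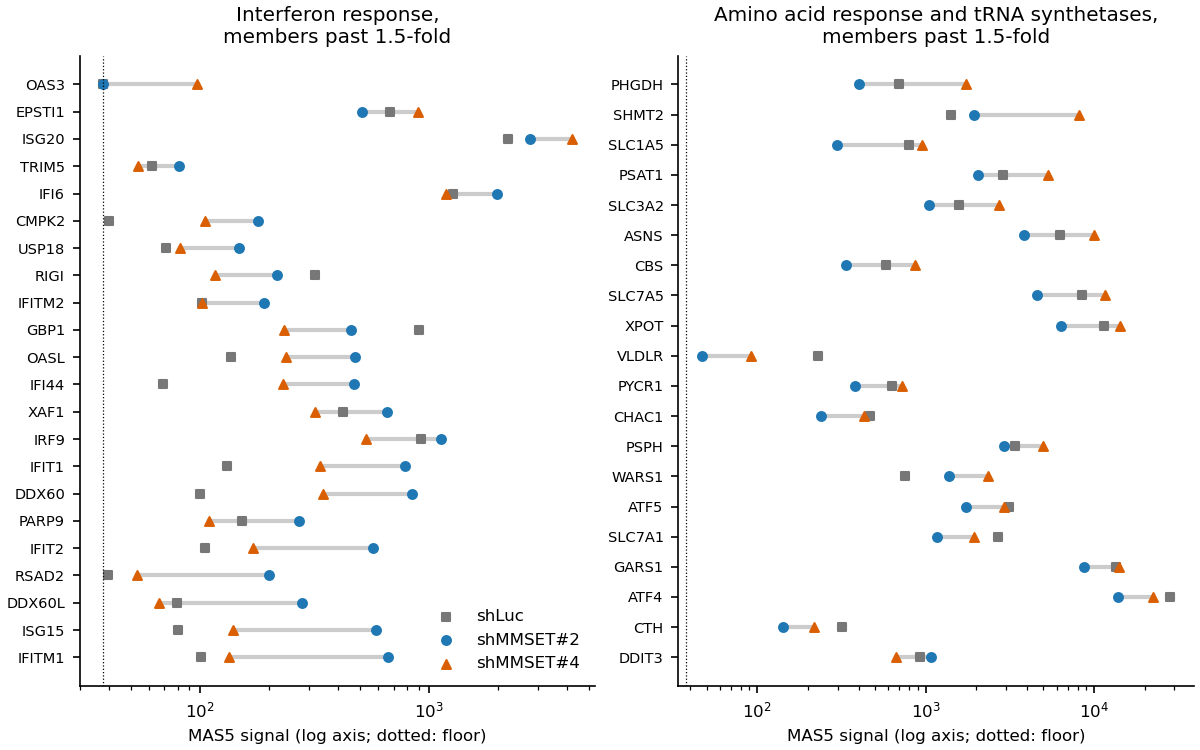
MAS5 signals (log axis) on the 3 arrays, 1 array each, of the interferon response members (left) and the amino acid response and tRNA synthetase members (right) past 1.5-fold between the hairpins. Among interferon genes 19 lie lower and 3 higher with shMMSET#4, and among amino acid genes 19 lie higher and 1 lower, and the dotted line is the floor of 37.7.

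Hypoxia and glycolysis genes had a median of 0.39, with 12 of 37 tested members at least 1.5-fold higher with shMMSET#4 and 1 lower. These shares were 32.4% and 2.70%, against 18.2% and 14.3% of all tested genes. HK2, hexokinase 2, had signals of 1223, 436 and 2671 (6.12-fold), with all 3 probe sets past 2-fold, NDRG1 had 8241, 1204 and 4133, GPI, the next enzyme of glycolysis, had 3136, 1421 and 3352, and BNIP3, a mitophagy receptor, had 2899, 1218 and 2788 with both probe sets past 2-fold. For these the shMMSET#2 array was the lowest, while with shMMSET#4 NDRG1 was also below shLuc and HK2 was above it. PFKFB4 (1071, 126 and 297) and PDK1, which holds pyruvate dehydrogenase off (5857, 1037 and 2373), were lower than shLuc with both hairpins. SLC2A3, a glucose transporter, was the 1 lower member (1104, 1765 and 741). The most abundant glycolytic genes differed little: PGK1 read 30882, 26544 and 27443, and GAPDH 48762, 37235 and 33820. PGK1 and GAPDH were chosen after their values were seen.

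Genes of the endoplasmic reticulum had a median of 0.30, with 13 of 51 (25.5%) at least 1.5-fold higher and 2 lower (3.92%), against 18.2% and 14.3% of all tested genes. DERL3, of the degradation channel, read 495, 364 and 948, SEC61A1, the translocon pore, read 3427, 1800 and 3855, and HSPA5, the chaperone BiP, read 24800, 11922 and 22398. ERO1B, an oxidase of disulfide formation, was lower (846, 2215 and 891). MYC targets had a similar median of 0.31, with 8 of 38 higher and 0 lower, the share higher being close to the 18.2% of all tested genes. Among them PHB2, prohibitin 2, read 12773, 6345 and 13283, and SLC19A1, the folate carrier, read 308, 330 and 778, with 3 probe sets from 0.18 to 1.29.

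Replication and division genes split. Of 60 G1/S and replication genes, 11 were at least 1.5-fold higher with shMMSET#4 and 1 was lower. The higher share is again close to that of all genes and the lower share is below it. Higher members include CCNE2, described above, POLD1, a polymerase subunit (490, 750 and 1717), TYMS, thymidylate synthase (25182, 11995 and 27579), CCNE1 (218, 307 and 679) and GINS2, of the replicative helicase (877, 1488 and 3261). TYMS ran from -0.23 to 1.53 over 3 probe sets and GINS2 from -0.64 to 1.13. Of 66 G2/M and mitosis genes only MKI67 was past 1.5-fold, with signals of 2455, 731 and 2876 and log2 ratios from 0.91 to 1.98 over 4 probe sets. TOP2A, another gene of dividing cells, chosen after its values were seen, read 28043, 21242 and 18139. MKI67 is thus set apart from its list on these arrays.

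On the lower side, histone genes had a median of -0.40, with 8 of 29 tested members (27.6%) at least 1.5-fold lower and 0 higher. Of all tested genes, 14.3% were that much lower and 18.2% that much higher. Of the 40 histone genes on the array, 9 were at the floor with shMMSET#4. H3C7 read 81.1, 133 and 42.2 and H2BC15 read 174, 260 and 96.9, whereas the bright H2AZ1 read 46740, 43065 and 39041. Most histone messages lack the poly(A) tail on which the labelling is primed. Immediate early and MAPK feedback genes had a median of -0.33 and were mixed, with 10 of 31 lower (32.3%) and 6 higher (19.4%). The higher share was close to the 18.2% of all tested genes, and the lower share was above their 14.3%. JUN, a subunit of AP-1, was the clearest, at 7346, 4157 and 1919 and from -2.10 to -1.12 over 4 probe sets. JUND (7846, 7425 and 3717) was lower on all 3 tested probe sets, SPRY2, an inhibitor of receptor signalling, read 21.3, 140 and 59.5, and NR4A2 read 239, 124 and 57.1. ETV5, an ETS factor downstream of ERK, differed by 2.05-fold the other way (16.5, 186 and 380) on the brightest of 4 probe sets that ran from -1.08 to 1.03. FOS, chosen after its values were seen, was alike (969, 393 and 371).

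The lists of this paragraph had shares near the 18.2% higher and 14.3% lower of all tested genes on at least 1 side. For the NF-kB genes the lower share was above that of all tested genes. NF-kB genes had a median of -0.26, with 8 of 31 lower (25.8%) and 5 higher (16.1%). NFKBIZ read 2268, 2175 and 1045 and IKBKB 1401, 1341 and 738, whereas LTB, a lymphotoxin subunit, read 6574, 7536 and 14675, with a log2 ratio of 0.29 on a second probe set. Among MHC class II genes, 17 tested, 3 were lower and 2 higher, and CIITA, their master regulator, read 557, 575 and 277. Of 24 tested p53 targets 4 were higher and 4 lower, with DDB2 (234, 119 and 394) and GADD45A (2876, 1259 and 2844) above and SESN1 (1198, 1194 and 635) below. BCL2 family and death receptor genes were mixed, with 7 of 30 tested members at least 1.5-fold higher and 6 lower. FAS read 4573, 3526 and 7949, with all 5 of its probe sets above 0. TNFSF10, which encodes the ligand TRAIL, read 538, 533 and 280. HRK, a proapoptotic BCL2 relative, read 201, 71.6 and 274.

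Adhesion and guidance genes had 12 of 53 tested members at least 1.5-fold higher and 7 lower, shares of 22.6% and 13.2% near those of all tested genes. PLXND1 and CDH1 were described above, SEMA4A read 672, 268 and 809 with probe sets from -0.20 to 1.59, and DCC, a netrin receptor, read 1634, 102 and 224. ITGB8, an integrin subunit, was lower (5950, 3962 and 1245), as was ITGAV, its partner (3910, 3263 and 1322), and ITGA7 was under the floor with shMMSET#4 (26.8, 118 and 34.9). For ITGB8 and ITGAV the shMMSET#4 array was the one that stood apart.

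Few members of the other large lists passed 1.5-fold, which 18.2% of all tested genes passed upward and 14.3% downward. Past 1.5-fold either way were 2 of 51 cytosolic ribosomal protein genes (all higher, RPS15 with 40444, 12848 and 27052 the first), 3 of 67 oxidative phosphorylation genes and 6 of 75 mitochondrial ribosomal genes. The oxidative phosphorylation genes differed little but mostly to the same side, with 55 of 67 below 0 and a median of -0.17, whereas 50.9% of all tested genes lay above 0. Also past 1.5-fold were 4 of 40 proteasome genes, 2 of 40 splicing regulators, 1 of 26 heat shock genes and 2 of 27 genes of the oxidative stress response. Of 16 genes of the RNA interference machinery, through which the hairpins act, 1 was higher and 2 were lower, TARBP2 (813, 1331 and 741) and TNRC6C (506, 600 and 336). Autophagy and lysosome genes, with 3 of 46 higher and 8 lower, and sterol and fatty acid genes, with 3 of 30 higher and 4 lower, lay close to the share of all tested genes on the lower side and below it on the higher side. HMGCS1, of sterol synthesis, was lower on both probe sets (3654, 4498 and 2383).

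**Figure D5:**
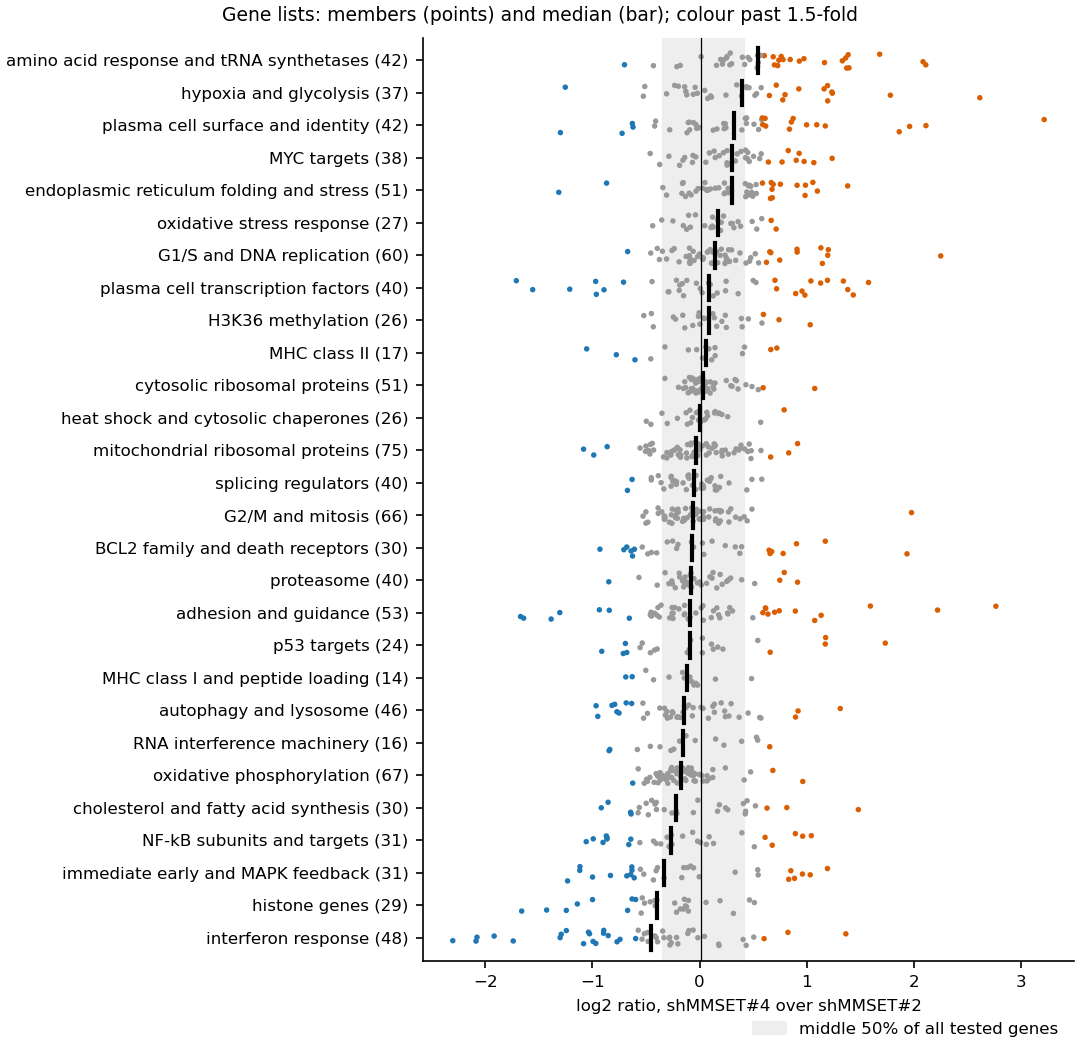
Log2 ratio of shMMSET#4 to shMMSET#2 for the tested members of 28 gene lists (number of members in brackets), with the median as a bar and the middle 50% of all tested genes shaded. The medians run from 0.54 for amino acid response genes to -0.45 for interferon response genes, with most lists inside the shaded band.

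Technical values of the hairpin arrays were close to each other, and the shLuc array differed from both. The 2% trimmed mean was 500.1 on each, and the median probe set signal was 77.4, 62.0 and 59.5. The log2 excess of the 3' over the 5' control probe set of ACTB, which grows as RNA degrades, was 1.70 with shLuc and 1.14 with each of the hairpins, so this value does not separate them. For GAPDH it was 0.04, 0.10 and 0.00. Across tested probe sets the signals of the hairpin arrays had a Spearman correlation of 0.95, which is a description across probe sets and not across samples.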

How the data were processed

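Total RNA from KMS11 cells was labelled and hybridised to Affymetrix arrays, 1 per hairpin, per the labels. The deposited values are MAS5 intensities on a linear scale (MAS5 per the submitters' processing notes, GeneSpring software per the series' design text), with no version or setting given in the sources used here. Although that text names the smaller U133 chip (version A), the 54675 identifiers are those of HG-U133 Plus 2.0. The authors' values share a 2% trimmed mean, so no rescaling was done. Symbols of 41037 probe sets were updated by Entrez identifier against RefSeq (GRCh38.p14), 1801 probe sets with several symbols and 11721 unnamed here were left out, with 62 controls. A floor at the 40th percentile of the hairpin arrays (37.7) was set before the log2 transform. A probe set was tested if above the array's median on at least 1 hairpin array, and a gene stands by its brightest tested probe set. Ratios with either side at the floor are bounds. With so few arrays, the precision is low.

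The members and gene lists were chosen with earlier results of these data known. A rule named 241 genes: NSD2, the 15 highest and 15 lowest concordant genes with all tested probe sets on the same side of 0, the 5 highest and 5 lowest with 1 tested probe set (both signals above the floor), all tested plasma cell factors, up to 6 members past 1.5-fold per side of every other list, and the 5 genes whose probe sets disagreed most. Placeholder names were skipped. Genes outside it were picked with their values in view. For 15 named genes probe sets disagreed at 1.5-fold. The steps were tested on simulated data. Scripts ran under Python 3.11.15 (matplotlib 3.10.9, pandas 2.3.3, numpy 2.4.6, scipy 1.17.1). The alternatives were other scalings, floors, filters, summaries over probe sets, a pseudocount and other thresholds.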

Additional observations from a re-analysis of the deposited data

How the results depend on the processing

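With 1 array a side, no alternative replaces a replicate. No paired analysis was possible because each group has 1 array, all numbered 1. Counts of genes at least 2-fold higher, lower, concordant higher and concordant lower became 520, 230, 119 and 70 with the floor at the 60th percentile, 408, 190, 84 and 49 with the filter at the 75th percentile, and 611, 311, 103 and 66 with log2(signal + 50). With the filter on the mean signal they were 736, 392, 170 and 104, and with no floor 1134, 728, 209 and 144. They became 2336, 1832, 591 and 575 at 1.5-fold and 212, 98, 33 and 17 at 3-fold. With the _x_at and _s_at probe sets left out, the concordant counts were 75 and 61. The share of called genes that were higher ran from 57.4% to 69.3%. NSD2 was 0.91 with the mean over probe sets and 0.83 without _x_at and _s_at probe sets.

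Of 336 list medians under an alternative, 305 moved by less than a tolerance. The tolerance was the SD over the members of the list divided by the square root of their number. It measures spread between genes and says nothing of the spread between cultures. Equal median signals shifted the all-gene median from 0.01 to 0.07 and gave list medians of -0.0010 (G2/M), 0.063 (heat shock), -0.016 (proteasome), 0.091 (cytosolic ribosome), 0.027 (mitochondrial ribosome), -0.11 (oxidative phosphorylation), 0.23 (oxidative stress) and 0.0091 (splicing). Quantile normalization gave -0.0061 (cytosolic ribosome) and -0.21 (oxidative phosphorylation). The 60th percentile floor gave -0.15 for immediate early and -0.15 for histone genes, no filter -0.14 and the 75th percentile filter -0.23 for histone genes. The mean over probe sets gave -0.052 (H3K36 methylation), 0.25 (hypoxia), -0.21 (oxidative phosphorylation) and -0.21 (splicing). The median over probe sets gave -0.015 (H3K36 methylation), 0.67 (amino acid), 0.25 (hypoxia), -0.0056 (cytosolic ribosome) and -0.17 (splicing). Without _x_at and _s_at probe sets the values were -0.41 (MHC class I), 0.43 (MYC targets), -0.071 (heat shock), 0.25 (hypoxia), -0.22 (autophagy) and -0.18 (splicing). With log2(signal + 50) they were -0.34 (interferon) and -0.30 (histone).

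Of 3757 values of named genes under an alternative, 10 belonged to genes past 1.5-fold and changed sign. Some genes within 1.5-fold changed sign too. CXCR3 became -0.23 without a filter and APAF1 0.035 with the mean and the median over probe sets. Without _x_at and _s_at probe sets ETV5 became -1.08, KLF2 0.11, PSMD11 -0.45, PSMG4 -0.94, RPL14 -0.50, TCF3 -0.60 and UNKL 1.80. Leaving probe sets out changes which one stands for the gene. The ratio of RAP1A ran from 4.84 to 11.99, IRF4 from 0.91 to 1.19, MYC from 1.31 to 1.40, and PRDM1 from 0.39 to 1.44, the last being low where probe sets are averaged or the median is taken.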
